A study of Homo sapiens with 79 samples.

Results

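The mRNAs examined here are those of 8 proteins that bind AU-rich elements, which are stretches of A and U in the 3′ untranslated region (3′ UTR) of many short-lived mRNAs. They were found in the tables by gene symbol (ELAVL1, ZFP36, ZFP36L1, ZFP36L2, HNRNPD, TIA1, TIAL1 and KHSRP) and are 8 of the 48453 genes, and 78 of the 185661 isoforms, of the deposited expression tables. All 8 genes and 71 of the 78 isoforms passed the filter on low values, which asked for at least 1 FPKM (a count of sequenced fragments scaled to transcript length and library size) in at least 2 libraries. Each mRNA was followed through formaldehyde RNA immunoprecipitation (fRIP) of 24 proteins, beginning with the fRIP of HUR, the protein that ELAVL1 itself encodes.

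The libraries came from K562, an established erythroleukemia cell line that grows in suspension, with no genotype, treatment or time point that differs between groups. Cells were lightly cross-linked with formaldehyde and sonicated, RNA was recovered with an antibody to 1 protein, and input is the RNA of the lysate before that step. The 70 fRIP libraries hold 3 of each protein, except EZH2 and STAG2 with 2, and the 9 input libraries form 3 numbered sets. The proteins comprised 6 RNA binding proteins (RBPs: HUR, PABP, IMP1, HNRNPU, HNRNPH1 and ADAR) and 18 chromatin-associated proteins (CAPs). The CAPs were the Polycomb proteins SUZ12 and EZH2, the methyltransferase subunits WDR5 and RBBP5, the acetyltransferases CBP and PCAF, HDAC1, the demethylases LSD1 and PHF8, the remodellers CHD4, CHD1 and CHD7, CBX3 and its phosphorylated form phospho-CBX3, DNMT1, CTCF, STAG2 and NUP98. Each protein was taken from its sample title, because the protocol text attached to every sample names the HuR antibody, also for input. All libraries are of 1 cell line, so the p-values measure the spread between its preparations. A change in a bulk library does not tell more copies bound from a larger share of the recovered RNA.

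AU-rich element binding proteins decide how long an mRNA lasts and how well it is translated. HUR, the product of ELAVL1, stabilises its targets, whereas the zinc finger proteins ZFP36 (tristetraprolin), ZFP36L1 and ZFP36L2 recruit deadenylases that shorten the poly(A) tail, and KHSRP brings in decay enzymes and also takes part in splicing. HNRNPD (AUF1) has isoforms with differing effects on decay, and TIA1 and TIAL1 repress translation, gather in stress granules and act in the nucleus on splicing. Several of these proteins are known to bind mRNAs of the same family, their own included.

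The 3′ UTRs were searched on the transcript strand for the pentamer AUUUA, for UUAUUUAUU, the extended element that ZFP36 proteins prefer, which always contains an AUUUA, and for UUUUAAAA, a run of U followed by a run of A. Sequences and coordinates are from GENCODE v44 lifted to GRCh37 (hg19), the build of the files. A 30-base window around the first match is shown for 1 isoform of each member, so that the members can be compared by the letters they carry. The windows are written 5′ to 3′ with the motif in capitals. UUAUUUAUU was found in the long 3′ UTR of ELAVL1 and in all of the 3 zinc finger mRNAs, at chr19:8026711-8026740 (minus strand) for ELAVL1, chr19:39899836-39899865 (plus strand) for ZFP36, chr14:69254793-69254822 (minus strand) for ZFP36L1 and chr2:43450586-43450615 (minus strand) for ZFP36L2.
ELAVL1: auuuauguauUUAUUUAUUgaagugugaaa
ZFP36: uaugacgacuUUAUUUAUUcuaauaugauu
ZFP36L1: aacuguuggaUUAUUUAUUuuagaaauucc
ZFP36L2: acuauuuaacUUAUUUAUUaucuugugaaa

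TIA1, TIAL1 and KHSRP lacked UUAUUUAUU in the isoform examined and held UUUUAAAA, at chr2:70439668-70439697, chr10:121335060-121335089 and chr19:6413667-6413696, all on the minus strand. The motifs do not divide the members, since ZFP36L1 held UUUUAAAA 2 times and ZFP36L2 1 time beside UUAUUUAUU. HNRNPD held neither, and its window, chr4:83274721-83274750 on the minus strand, shows the first of 2 AUUUA in the isoform with the longer 3′ UTR.
TIA1: cauccacauugUUUUAAAAagaaacaagau
TIAL1: gaaaauauuuaUUUUAAAAauugaaauguu
KHSRP: ggcccucuuguUUUUAAAAuaaacuuuuaa
HNRNPD: guagccauuaagAUUUAuaugaauauuuuc

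The number of elements differed widely between members and between isoforms of 1 gene. The main ELAVL1 isoform of input, ENST00000596459.1, has a 3′ UTR of 324 bases without any of the 3 motifs, while the longer form ENST00000407627.2 has one of 4910 bases with 13 AUUUA and 1 UUAUUUAUU. Of 823 UTRs within 25% of that length, 99.1% held AUUUA and 20.4% held UUAUUUAUU, and their median was 10 AUUUA, so a long UTR usually has the pentamer. ZFP36 had 5 AUUUA in 713 bases, where the median of 1384 UTRs of like length was 1 and 4.05% held UUAUUUAUU. ZFP36L1 had 8 AUUUA in 1871 bases and ZFP36L2 had 5 in 1917 bases, against a median of 4 for both lengths, and 7.96% and 8.49% of UTRs of like length held UUAUUUAUU. TIA1 had 11 AUUUA and 3 UUUUAAAA in 2515 bases, and TIAL1 had 5 of each in 2200 bases, where UTRs of like length held AUUUA in 94.3% and 91.7% of cases and UUUUAAAA in 55.3% and 50.5%. KHSRP had no AUUUA in 764 bases but 2 UUUUAAAA, which 19.2% of UTRs of like length held. Over all 9938 UTRs compared, 67.1% held AUUUA, 7.36% held UUAUUUAUU and 32.1% held UUUUAAAA. These matches describe letters in a window and were not tested as binding sites.

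All 8 genes are protein coding. ELAVL1 (ENSG00000066044.9) lies at chr19:8023457-8070543, ZFP36 (ENSG00000128016.4) at chr19:39897487-39900052, ZFP36L1 (ENSG00000185650.8) at chr14:69254377-69262970, ZFP36L2 (ENSG00000152518.5) at chr2:43449541-43453745, HNRNPD (ENSG00000138668.14) at chr4:83273651-83295656, TIA1 (ENSG00000116001.11) at chr2:70436576-70475792, TIAL1 (ENSG00000151923.13) at chr10:121331314-121356541 and KHSRP (ENSG00000088247.11) at chr19:6413113-6424822. Other annotated genes overlap 6 of them, and ZFP36 and TIAL1 have no such neighbour. ZFP36L2 shares 21.9% of its 25-base words with an overlapping gene on the other strand and ZFP36L1 shares 7.48% with one on the same strand, and KHSRP shares 4.45% with the pseudogene KHSRPP1. ELAVL1 shares 13% of its words with other genes, of which 7.06% with the gene that overlaps it on the other strand, and TIAL1 shares 9.66%. Reads in all these stretches could be split. Whether counting used strand is not given in the sources used here.

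Depth was estimated from the step that 1 fragment adds to low values, and came to 1.93 to 58.5 M (mega) fragments in fRIP libraries and 11.9 to 30.3 M in input. The HUR libraries held 5.05 to 9.15 M fragments, those of SUZ12 20.9 to 25.1 M and those of ADAR 1.93 to 2.3 M. All of 10 erythroid markers were at 1 FPKM or more in input, and LYZ, a marker of myeloid cells, was at 38.2 FPKM. Libraries of 1 group correlated at Pearson r from 0.914 to 0.993 across genes.

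In HUR fRIP, the mRNA for HUR itself was the only one of the 8 called enriched, where a call needed an adjusted p under 0.05 and more than 2-fold, and the KHSRP mRNA lay just under 2-fold. For comparison, 6.42% of the 25442 genes tested were called enriched in HUR fRIP and 6.93% depleted. ELAVL1 stood at 102.9, 110.7 and 72.5 FPKM in the 3 HUR libraries and between 32.7 and 57.4 FPKM in the 9 inputs, with a median of 42.6. All HUR libraries lay above every input, and the third was the lowest. The means were 95.4 ± 20.2 (SD, n = 3) and 43.2 ± 7.74 (SD, n = 9), a log2 fold change of 1.12 ± 0.14 (SE), 2.17-fold (limma, adjusted p = 1.86e-09; two-sided exact permutation p = 0.00909, the smallest that 3 against 9 libraries allow).

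KHSRP, the decay-promoting KH-domain protein, was at 410.2, 328.6 and 306.1 FPKM in HUR fRIP and at 139.2 to 243.5 FPKM (median 176.5) in input. Again no HUR library overlapped the inputs. The log2 fold change was 0.95 ± 0.15 (SE), 1.93-fold, with an adjusted p of 2.77e-07 in limma, which passes the p threshold but not the 2-fold one. ZFP36L1, which promotes decay, was at 14.8, 15.3 and 10.2 FPKM against 4.93 to 9.29 FPKM (median 8.33) in input. Its HUR libraries too were all above the inputs, at a log2 fold change of 0.66 ± 0.17 (SE) and a limma adjusted p of 8.95e-04, short of 2-fold.

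The other 5 members gave no call in HUR fRIP, and their HUR and input libraries overlapped. How often the libraries of a fRIP lie apart from all inputs was not counted over all genes. Such statements, here and below, only describe the gene named. TIA1 was at 91.9, 70 and 81.2 FPKM against 58.9 to 79.7 FPKM in input, a log2 fold change of 0.25 ± 0.11 (SE) with a limma adjusted p of 0.0613. TIAL1 was at 48.5, 63 and 47.3 FPKM against 43.7 to 54.5 FPKM, at 0.09 ± 0.12 on the log2 scale. HNRNPD was at 127.3, 143.3 and 109.0 FPKM against 123.0 to 204.1 FPKM, at -0.29 ± 0.20 on the log2 scale. TIA1 and TIAL1 encode closely related proteins, and neither passed the test.
ZFP36L2 was at 14, 12.3 and 10.7 FPKM against 9.34 to 20.5 FPKM, and ZFP36 at 2.83, 3.21 and 1.36 FPKM against 1.91 to 3.6 FPKM. Both carry UUAUUUAUU in the windows shown above, but the ZFP36 window is of a minor form with an input median of 0.0119 FPKM. The main ZFP36 form of input, ENST00000248673.3, at 51.2% of the gene's input FPKM, is not in the annotation used here. Its 3′ UTR was not searched. ZFP36 is the scarcest member and rested on an estimated 10 to 42 fragments in a HUR library and 38 to 154 in an input library.

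The values moved with the inputs chosen. Against input sets 1, 2 and 3 taken alone, the ELAVL1 log2 fold change was 1.40, 0.91 and 1.05 and that of KHSRP 1.15, 0.78 and 0.92, so set 2 lost the ELAVL1 call and set 1 made a KHSRP call. Without HUR replicate 3 KHSRP reached 1.04, and without input set 2 replicate 3 it reached 1.01. After each library was centred on its median gene, which moved the HUR values by -0.25 on the log2 scale and the share of HUR calls that were enriched from 48.1% to 20.4%, ELAVL1 stood at 0.87.

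**Figure D1:**
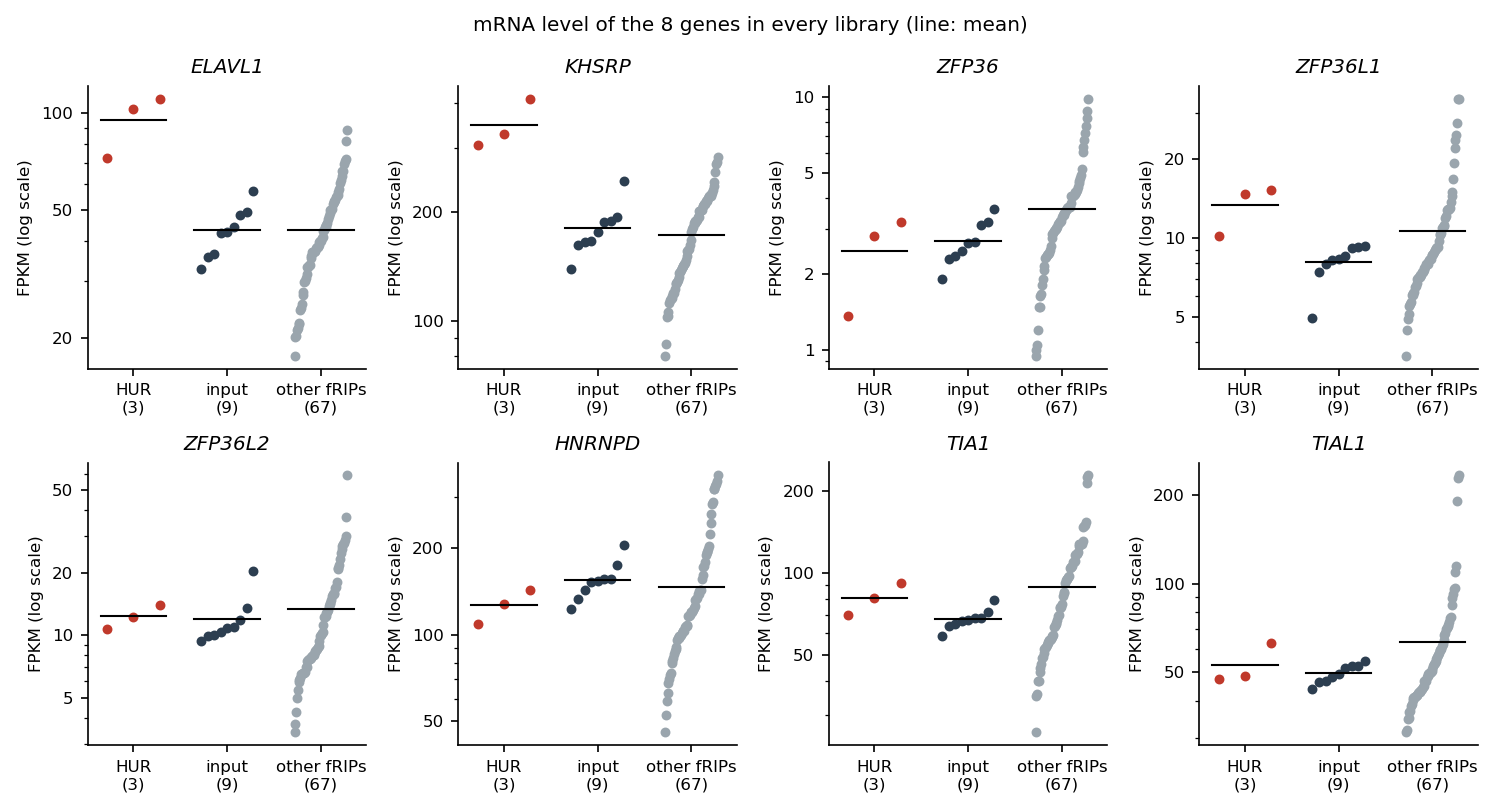
Level of each of the 8 mRNAs (FPKM, log axis) in the 3 HUR, 9 input and 67 other fRIP libraries, with 1 point a library, sorted by value within a group, and a line at the mean. The HUR points for ELAVL1 (72.5 to 110.7 FPKM) and KHSRP (306.1 to 410.2 FPKM) lie above all inputs, while those of HNRNPD, TIA1, TIAL1, ZFP36 and ZFP36L2 overlap them.

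To ask whether the HUR values differ from those of other antibodies, HUR fRIP was compared with the mean of the other 23 fRIPs in the same fit, without input. ELAVL1 and KHSRP were both called, against 9.55% of all genes called enriched in this comparison. ELAVL1 was higher by 1.19 ± 0.13 (SE) on the log2 scale, 2.28-fold (limma, adjusted p = 4.65e-12). KHSRP was higher by 1.05 ± 0.13 (SE), 2.07-fold (limma, adjusted p = 5.73e-10). Of the 67 other fRIP libraries, 2 reached the lowest HUR library for ELAVL1 and 0 did for KHSRP. None of the other 6 members was called, ZFP36L1 being nearest at 0.45 ± 0.15. Without HUR replicate 1 KHSRP fell short of the call at 0.93, and with libraries centred on their medians both did, at 0.91 for ELAVL1 and 0.77 for KHSRP.

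Across the 24 fRIPs, the ELAVL1 mRNA was highest in HUR and next in PABP, which coats poly(A) tails, at 77 ± 9.89 FPKM (SD, n = 3) and IMP1, which binds and localises mRNAs, at 69.1 ± 13.2. It was lowest in SUZ12 at 19.6 ± 1.87, HNRNPH1 at 23 ± 1.52 and HDAC1 at 24.8 ± 4.9 FPKM. The HUR and PABP libraries overlapped, as did 22 of 23 neighbouring pairs in the order. KHSRP was highest in HUR, followed without overlap by IMP1 at 252.7 ± 43.7 FPKM, and lowest in ADAR, the adenosine deaminase that edits double-stranded RNA, at 90 ± 11.6. Its span from the highest to the lowest mean, 3.87-fold, was the narrowest of the members, and ZFP36L2 had the widest at 10.2-fold.

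Of the 192 pairs of member and fRIP, 13 were called enriched over input and 5 depleted, in 11 of the 24 fRIPs. In the same 24 comparisons, 6.9% of tests over all genes were called enriched and 5.52% depleted. KHSRP was the 1 member without a call. All 24 comparisons use the same 9 inputs and are not independent of each other.

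SUZ12, a subunit of the Polycomb repressive complex 2, gave the most calls, with 3 members enriched and 2 depleted, where 15.3% and 8.6% of all genes were called. The 3 enriched ones were TIAL1, TIA1 and HNRNPD. TIAL1 was at 233.1, 228.7 and 190.8 FPKM against 43.7 to 54.5 FPKM (median 49.4) in input. Every SUZ12 library was above every other library of the series, and the log2 fold change of 2.11 ± 0.12 (SE), 4.32-fold, was the largest in size of the 192 pairs (limma, adjusted p = 5.96e-23).
TIA1 was at 228.5, 224.7 and 213.3 FPKM against 58.9 to 79.7 FPKM in input (median 67.1), a log2 fold change of 1.70 ± 0.11 (SE) with a limma adjusted p of 1.72e-20. HNRNPD was at 332.7, 327.8 and 341.5 FPKM against 123.0 to 204.1 FPKM (median 153.6), at 1.12 ± 0.20 (SE) on the log2 scale. SUZ12 had the highest mean of the 24 fRIPs for all 3, without overlap with the next in the order, although 1 HNRNPH1 library reached 356.8 FPKM for HNRNPD. HNRNPD fell below 2-fold, at 0.91, against input set 2 alone.

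The 2 members depleted in SUZ12 fRIP were ELAVL1 and ZFP36L2, for both of which SUZ12 was the lowest of the 24 fRIPs. ELAVL1 was at 20.1, 17.6 and 21.2 FPKM against 32.7 to 57.4 FPKM in input, a log2 fold change of -1.09 ± 0.14 (SE; limma, adjusted p = 1.68e-09). ZFP36L2 was at 4.27, 3.41 and 3.73 FPKM against 9.34 to 20.5 FPKM, at -1.40 ± 0.20 (SE). All SUZ12 libraries lay below all inputs for both. Against input set 1 alone, the set nearest to the authors' own input values for SUZ12, the ELAVL1 call was lost, at -0.80. KHSRP, ZFP36 and ZFP36L1 gave no call in SUZ12.

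HNRNPH1, a splicing regulator that binds G-rich RNA, enriched all of the 3 zinc finger mRNAs, in a fRIP where 24.5% of all genes were enriched. ZFP36L1 was at 27.6, 34.1 and 34 FPKM against 4.93 to 9.29 FPKM in input, its highest level anywhere, at 1.86 ± 0.17 (SE) on the log2 scale (limma, adjusted p = 4.94e-15). ZFP36 was at 6.8, 8.84 and 9.86 FPKM against 1.91 to 3.6 FPKM, at 1.36 ± 0.19, and ZFP36L2 was at 28.9, 21.8 and 26 FPKM against 9.34 to 20.5 FPKM, at 1.06 ± 0.20. No HNRNPH1 library of these 3 genes overlapped the inputs.
Centring moved the HNRNPH1 values by -0.73 and the share of its calls that were enriched from 75.6% to 28%, after which ZFP36 stood at 0.63 and ZFP36L2 at 0.33, both short of the call. ZFP36L2 was also short of it against input set 2 alone, at 0.83, and without HNRNPH1 replicate 1, at 0.97. The HNRNPH1 libraries held 6.43 to 7.56 M fragments.

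The zinc finger mRNAs were called in 3 CAP fRIPs besides SUZ12. ZFP36L1 was at 22.2, 24.9 and 23.8 FPKM in the fRIP of DNMT1, the maintenance DNA methyltransferase, at 1.45 ± 0.17 (SE) on the log2 scale, where 9.56% of genes were enriched. ZFP36 was at 8.25, 7.67 and 6.35 FPKM in the fRIP of CBX3, a heterochromatin protein, at 1.20 ± 0.19, where 7.45% of genes were enriched. ZFP36L2 was at 30.1, 26.9 and 59.1 FPKM in the fRIP of WDR5, a core subunit of histone H3 lysine 4 methyltransferases, at 1.56 ± 0.20, where 3.9% of genes were enriched. Each of these groups lay above all inputs, and WDR5 replicate 3 stood apart from the other two. Replicate 3 was also the highest for ZFP36L2 in input set 2, at 20.5 FPKM, and in NUP98, at 37.4 FPKM, and a fit with a replicate block within input set 2 gave 1.33 on the log2 scale. Centring moved the WDR5 values by 0.38 and the share of its calls that were enriched from 36.7% to 78.2%, and for CBX3 it moved that share from 67.1% to 50%.

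TIA1 was called in opposite directions in PABP and ADAR fRIP. TIA1 was at 35.3, 35.8 and 26 FPKM in PABP fRIP, its lowest level, at -1.05 ± 0.11 (SE) on the log2 scale, where 14.7% of genes were depleted. In ADAR fRIP it was at 154.0, 119.7 and 148.5 FPKM, at 1.04 ± 0.11, where 26.6% of genes were enriched. All PABP libraries lay below and all ADAR libraries above the inputs.
ADAR had the least depth, and centring moved its values by -0.98 and the share of its calls that were enriched from 86.1% to 24.8%, which left TIA1 at 0.06. The ADAR call was also lost against input set 1 alone, at 0.95, without ADAR replicate 1, at 0.97, and without ADAR replicate 3, at 0.999. Input set 1 is the set nearest to the authors' own input values for ADAR. The PABP call for TIA1 was lost after centring, at -0.56, where the enriched share of PABP calls moved from 43% to 75.2%. It was also lost without PABP replicate 3, at -0.91. Against input set 3 alone, the set nearest to the authors' own input values for PABP, the value was -0.96, short of the call.

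HNRNPD had the most calls of any member, 4 of the 18. In PABP fRIP it was at 319.8, 319.5 and 287.7 FPKM against 123.0 to 204.1 FPKM in input, at 1.00 ± 0.20 (SE) on the log2 scale, where 11.1% of genes were enriched. The value sits at the 2-fold limit, and it fell under it without PABP replicate 1 or 2, without input set 1 replicate 1 or 3 and without input set 3 replicate 3, at 0.96 to 0.99, and against input set 2 alone at 0.80. HNRNPD was depleted in the fRIP of EZH2, the Polycomb methyltransferase, with 73.8 and 52.6 FPKM, at -1.29 ± 0.23, and in that of LSD1, a histone demethylase, with 70.1, 45.9 and 81.1 FPKM, at -1.25 ± 0.20. In those fRIPs 9.13% and 6.66% of genes were depleted.
Both EZH2 libraries lay below every input, where the smallest exact two-sided p that 2 against 9 libraries allow is 0.0364. Thus HNRNPD had its highest mean in SUZ12 and its lowest in EZH2, which are subunits of 1 complex. The EZH2 and LSD1 libraries overlapped, with means of 63.2 and 65.7 FPKM. Centring took LSD1 to -0.84 and moved its enriched share of calls from 10.9% to 66.4%, and for EZH2 that share moved from 53.5% to 67.7%.

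The last call was TIAL1 in the fRIP of RBBP5, another subunit of histone H3 lysine 4 methyltransferases, at 92.3, 96.6 and 114.9 FPKM, which is 1.01 ± 0.12 (SE) on the log2 scale, where 2.28% of genes were enriched. It fell short without RBBP5 replicate 3 at 0.92, without input set 3 replicate 3 at 0.99, against input set 1 alone at 0.97 and after centring at 0.83, where the enriched share of RBBP5 calls moved from 75.7% to 36.8%. No member was called in the other 13 fRIPs, in which the share of all genes called in either direction was 12.9% for CBP, 1.43% for CHD1, 12.7% for CHD4, 1.89% for CHD7, 1.21% for CTCF, 13.8% for HDAC1, 15.7% for HNRNPU, 14.7% for IMP1, 5.38% for NUP98, 9.05% for PCAF, 4.9% for PHF8, 4.34% for STAG2 and 5.49% for phospho-CBX3.

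**Figure D2:**
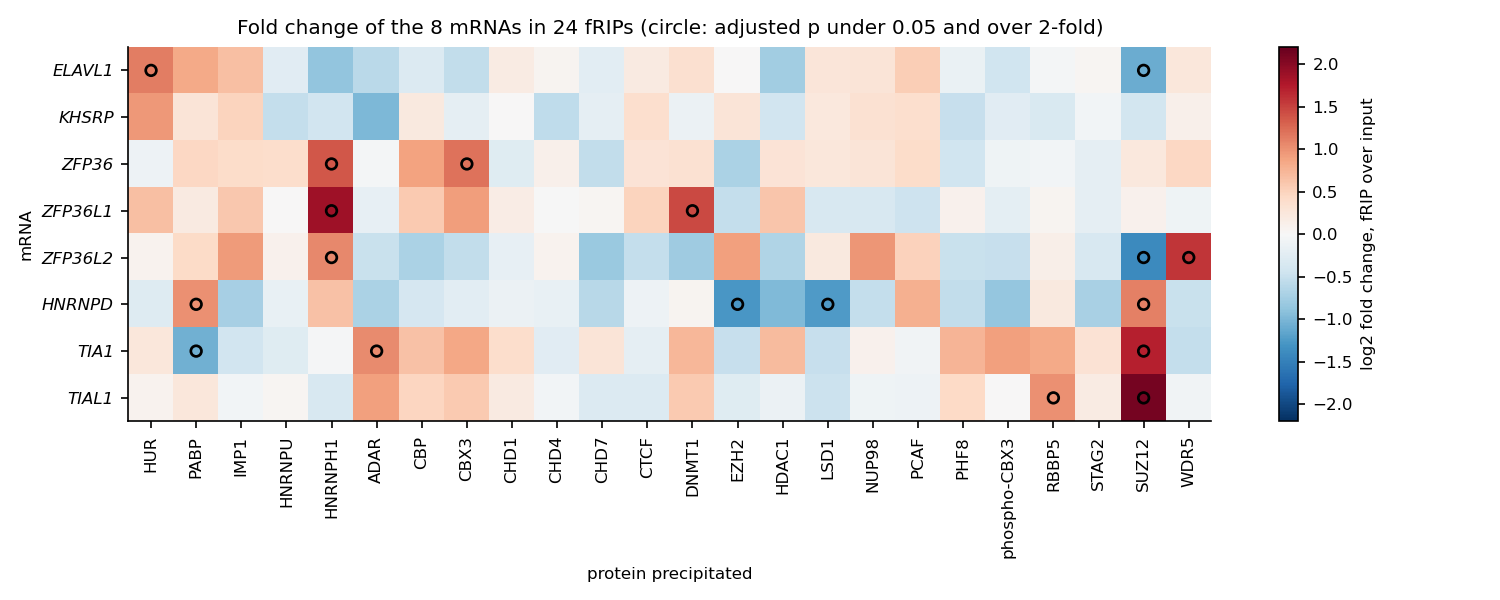
Log2 fold change over input (colour scale) of each of the 8 mRNAs (rows) in each of the 24 fRIPs (columns, RBPs first), with a circle on the 18 called pairs. SUZ12 holds 5 circles, from -1.40 for ZFP36L2 to 2.11 for TIAL1, and the KHSRP row has 0.

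The isoform table showed that the ELAVL1 forms did not move equally in HUR fRIP. ENST00000407627.2, the form with the long 3′ UTR and the UUAUUUAUU window shown above, was at 46, 44.2 and 36.3 FPKM against 9.56 to 19.4 FPKM (median 12.1) in input. Its HUR libraries were all above the inputs, at a log2 fold change of 1.69 ± 0.15 (SE), 3.22-fold (limma, adjusted p = 1.71e-13). ENST00000596459.1, whose 3′ UTR lacks the motifs, was at 51.4, 62.6 and 32.2 FPKM against 20.7 to 36.4 FPKM (median 29.7). HUR replicate 3 overlapped the inputs, and the log2 fold change was 0.71 ± 0.16 (limma, adjusted p = 7.56e-04), short of 2-fold.
The log2 ratio of the long to the short form was -0.16 ± 0.33 (SD, n = 3) in HUR, with libraries at -0.16, -0.49 and 0.17, and -1.14 ± 0.14 (SD, n = 9) in input. No HUR library overlapped an input (two-sided exact permutation p = 0.00909, 0.0136 after adjustment over the 24 fRIPs). HUR had the highest mean ratio, but HNRNPH1 at -0.42, HNRNPU at -0.51 and RBBP5 at -0.64 also exceeded input with the same exact p, and 4 libraries of other fRIPs reached the lowest HUR library. DNMT1 had the lowest ratio, at -2.77. The test of this ratio was added after the isoform values were seen.
Against the other 23 fRIPs, the long form was higher in HUR by 2.09 ± 0.14 (SE) on the log2 scale and the short form by 0.76 ± 0.15, of which the first was called. The long form kept its call against each input set alone, at 1.98, 1.41 and 1.67. Isoform values are Cuffdiff estimates that divide fragments between overlapping forms.

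**Figure D3:**
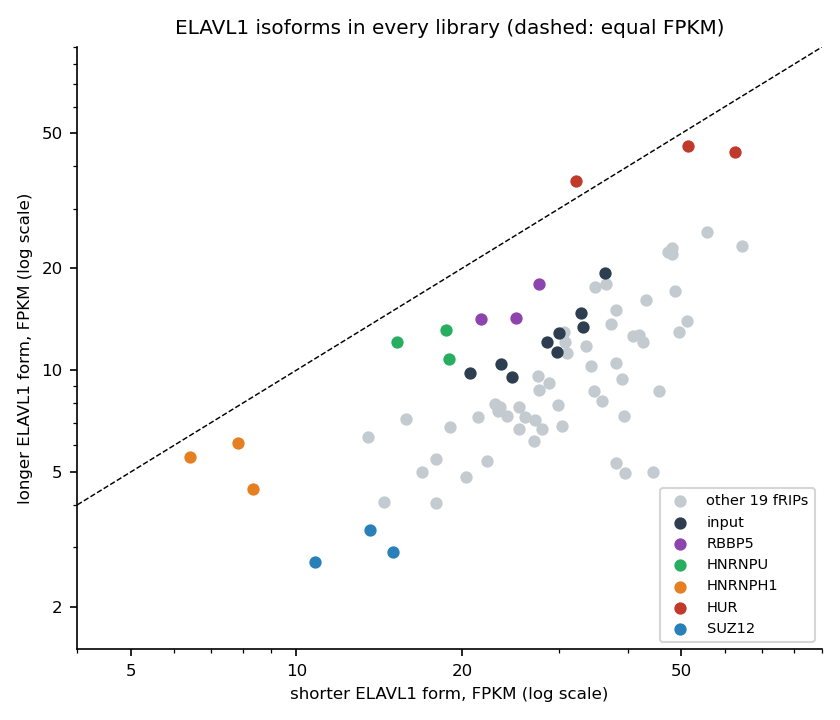
FPKM of the longer ELAVL1 form against the shorter one in every library, both on log axes, with inputs, HUR, SUZ12 and the 3 fRIPs next in ratio in colour and a dashed line at equal FPKM. The 3 HUR libraries lie at or near the line (log2 ratios from -0.49 to 0.17), and all 9 inputs lie below it, about a mean of -1.14.

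Of the 71 member isoforms tested, 7 were called enriched in HUR fRIP and 3 depleted, where 4.81% and 6.4% of 104506 isoforms were called. KHSRP ENST00000594496.1, a 999-base coding form, was at 176.9, 126.6 and 114.1 FPKM against 25.6 to 54.6 FPKM (median 41.5) in input. It accounted for 39.7% of KHSRP FPKM in HUR and 21.2% in input, at a log2 fold change of 1.84 ± 0.24 (SE; limma, adjusted p = 7.88e-09). ENST00000398148.3, the main KHSRP form of input with an annotated 3′ UTR, which carries the UUUUAAAA window, was at 116.1, 98.7 and 76.8 FPKM against 36.7 to 62.3 FPKM, at 0.96 ± 0.17, above all inputs but short of 2-fold. A minor KHSRP form, ENST00000595223.1, was called at 2.19 ± 0.34 with libraries at 6.39, 2.65 and 12.2 FPKM.

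TIAL1, whose gene total did not differ, had isoforms called both ways in HUR fRIP. ENST00000369092.4 was at 3.37, 3.1 and 2.51 FPKM against at most 0.16 FPKM in input, and the 490-base coding form ENST00000369086.1 was at 6.04, 7.91 and 7.22 FPKM against 1.76 to 4.61 FPKM. The 3 depleted forms were ENST00000463089.2 at -1.58, the nonsense-mediated decay form ENST00000497671.1 at -1.38 and the retained-intron form ENST00000470781.1 at -1.04 on the log2 scale, all below the inputs in every HUR library. The remaining calls were the TIA1 retained-intron form ENST00000474699.1, at 24, 13.9 and 16.8 FPKM against 5.08 to 11.2 FPKM, and HNRNPD ENST00000509263.1, at 1.63, 12.1 and 5.11 FPKM against up to 3.04 FPKM, which overlapped input. ZFP36, ZFP36L1 and ZFP36L2 had no isoform called.
Against the other 23 fRIPs 9 member isoforms were higher in HUR and 5 lower, where 7.44% and 7.84% of all isoforms were. They included ENST00000313899.7 of HNRNPD, the form with the longer 3′ UTR shown above, which was at 32.5, 26.8 and 23.5 FPKM, higher by 1.37 ± 0.17 (SE) on the log2 scale. Against input it was above every library (11.7 to 20.2 FPKM) but short of 2-fold, at 0.87 ± 0.19. ENST00000353341.4 of HNRNPD, with the 3′ UTR of 356 bases that held none of the motifs, was at 24.7, 26.2 and 16.4 FPKM against 16.9 to 48.3 FPKM, at -0.44 ± 0.44. ENST00000543098.1, the main HNRNPD form of input at 55% of the gene's input FPKM, was at 41.2, 52.2 and 34.9 FPKM against 62 to 115.5 FPKM, below every input but short of 2-fold, at -0.98 ± 0.27 (SE; limma, adjusted p = 0.00507). It is not in the annotation used here, and its 3′ UTR was not searched.

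In SUZ12 fRIP, 27 of the 71 isoforms were enriched and 7 depleted, where 21.3% and 6.47% of all isoforms were. Forms that the annotation classes as retained intron, which keep an intron and have no annotated coding sequence, were enriched in 10 of 18 cases and depleted in 0, while protein-coding forms were enriched in 7 of 36 and depleted in 7 of 36. Nonsense-mediated decay forms were enriched in 4 of 5 cases and forms without a defined coding sequence in 5 of 7. The retained-intron calls all fell in TIA1, TIAL1 and HNRNPD, whose gene totals were enriched, while KHSRP had 0 of 3 and ELAVL1 0 of 1. The difference between the classes was not tested, and the shares over all isoforms were not split by class. TIAL1 ENST00000470781.1, a retained-intron form, was at 68.6, 68.6 and 55.1 FPKM against 2.18 to 3.79 FPKM in input. Its log2 fold change was 4.09 ± 0.36 (SE). The main coding form of input, ENST00000436547.2, was at 3.32e-05, 8.85e-30 and 3.71 FPKM against 9.46 to 20.5 FPKM, at -3.32 ± 0.42. This is the isoform that carries the TIAL1 window shown above. TIAL1 was thus higher in total in SUZ12 while its main form of input was lower.
HNRNPD ENST00000509263.1 averaged 104.0 FPKM in SUZ12 against 1.03 in input, at 5.90 ± 0.62 (SE), and the nonsense-mediated decay form ENST00000508119.1 averaged 64.2 against 5.97, at 3.28 ± 0.31. TIA1 had 12 of 20 forms enriched, such as the retained-intron form ENST00000496452.1 at 33.8, 18.7 and 22.9 FPKM against 1.94 to 5.9 FPKM. Both main ELAVL1 forms were depleted, the long one at -1.74 and the short one at -1.07.

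The share of a gene's FPKM in its retained-intron isoforms was then compared with input over the 5 members that have such a form, with 120 exact tests. For TIAL1 it was 61.4%, 58.6% and 60.1% in the SUZ12 libraries and 15.7% to 26.4% in the inputs, with means of 60% ± 1.41 (SD, n = 3) and 21.1% ± 3.26 (SD, n = 9). SUZ12 was the highest of all fRIPs, ahead of CBP at 49.6% and CBX3 at 47.4%, and did not overlap input (two-sided exact permutation p = 0.00909, adjusted p = 0.0206 over the 120 tests). The test of these shares was added after the isoform values were seen, and the depths behind them are those given above.
For KHSRP the SUZ12 share was 51.5% against 37.3% in input, again the highest of the 24, although the gene total was not called. For TIA1 the SUZ12 share was 46.3% ± 2.95 against 32.8% ± 3.9, and HNRNPH1 at 66.5%, ADAR at 60.9%, RBBP5 at 56% and PHF8 at 49.5% were higher. For HNRNPD it was 13.8% against 6.66%, and PHF8 had the highest at 25.3%. In ELAVL1, HNRNPH1 stood apart with 42.4%, 38.5% and 31.7% against 1.79% to 6.31% in input.
PABP lay at the other end, with the lowest share of the 24 fRIPs in every one of the 5 genes. It was 2.79% for TIAL1, 7.75% for TIA1, 0.0864% for HNRNPD, 25.3% for KHSRP and 0.107% for ELAVL1, each below all inputs with the same exact p. HUR had a lower share than input for KHSRP, at 25.7%, and higher shares for TIA1, at 45.6%, and HNRNPD, at 13.2%. Over the 24 fRIPs, the share differed from input at an adjusted exact p under 0.05 in 16 fRIPs for TIAL1 (10 higher, 6 lower). It did so in 16 for TIA1 (9 and 7), 15 for HNRNPD (9 and 6), 14 for KHSRP (7 and 7) and 11 for ELAVL1 (4 and 7). These shares were not computed for other genes, so whether such differences are particular to the members was not tested. The tests treat the 9 inputs as alike, but the ELAVL1 share was 4.78% to 6.31% in input set 1 and 1.79% to 3.13% in sets 2 and 3.

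**Figure D4:**
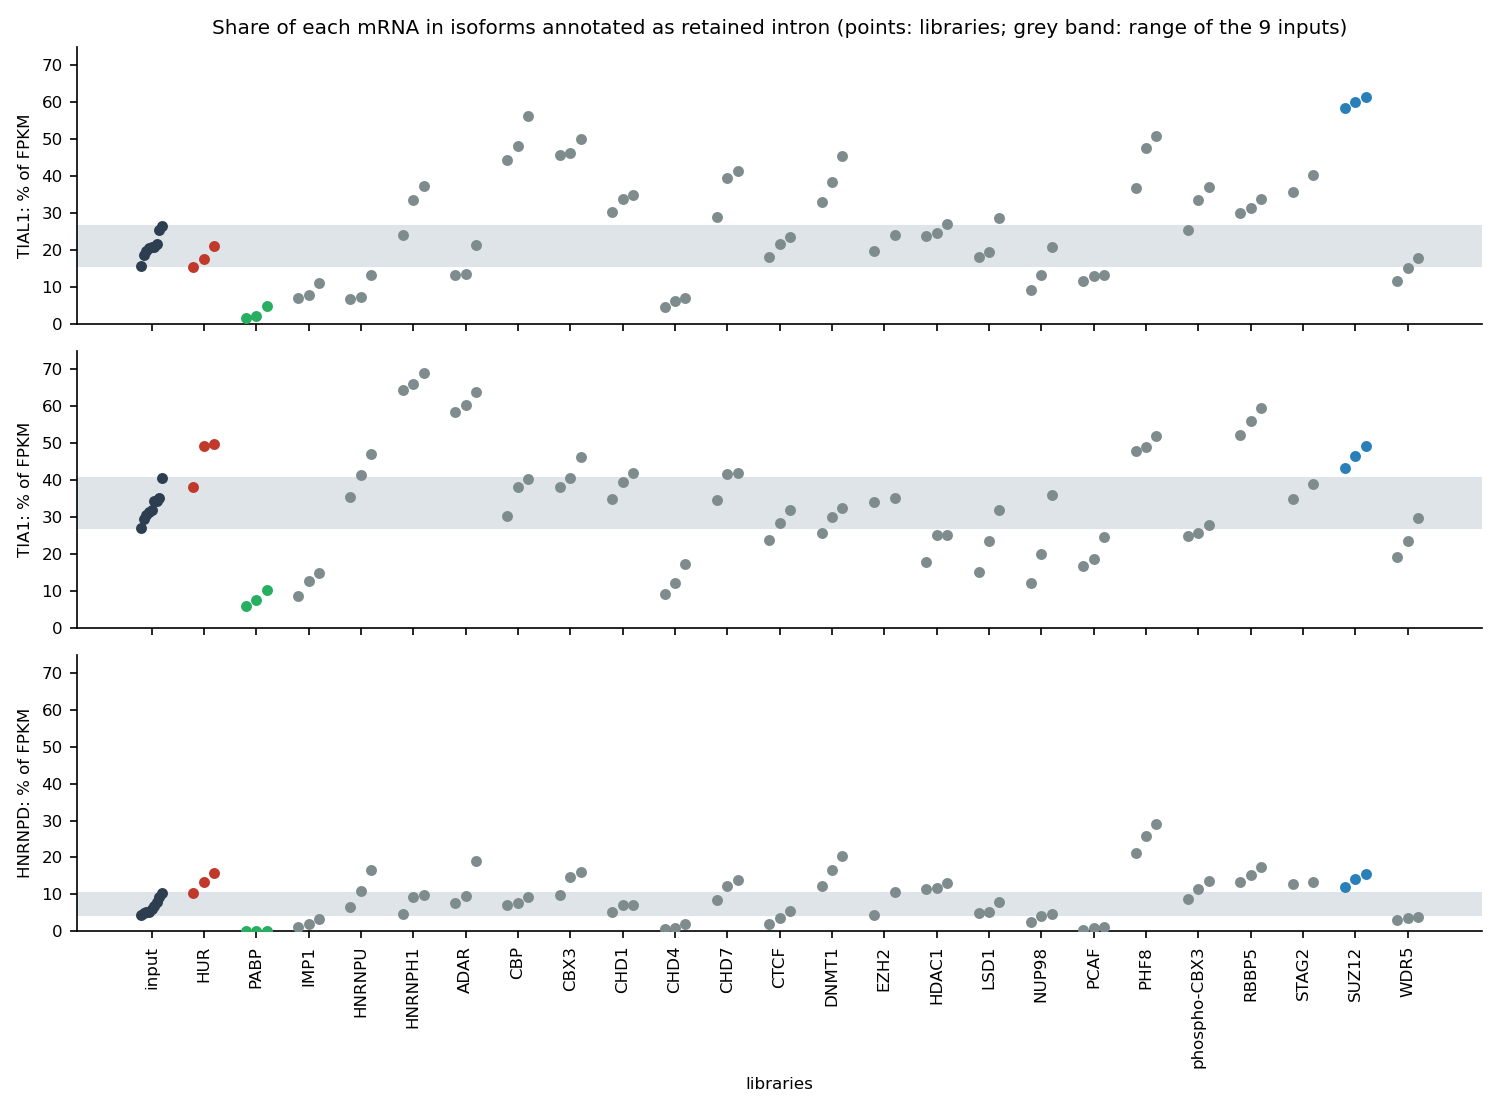
Percent of the FPKM of TIAL1, TIA1 and HNRNPD (panels) in isoforms annotated as retained intron, by fRIP and input, with 1 point a library sorted by value and a grey band over the range of the 9 inputs. The SUZ12 libraries for TIAL1 lie at 58.6% to 61.4%, above all others, and the PABP libraries lie below the band in each panel.

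The members were set beside other genes of AU-rich element decay, in lists drawn from textbook roles, of which 81 genes were tested. In HUR fRIP 8 of the 81 were enriched and 11 depleted, beside 6.42% and 6.93% of all genes, and in SUZ12 fRIP 24 were enriched and 18 depleted. The paralogs ELAVL2, ELAVL3 and ELAVL4 did not pass the filter on low values. Of 20 other binders of AU-rich or U-rich mRNA, 2 were enriched in HUR fRIP and 0 depleted, with a median log2 fold change of 0.30 beside 0.08 over all genes. These were YBX1, a cold shock domain protein, at 764.0, 770.7 and 905.1 FPKM against an input mean of 185.5, and PCBP2, a poly(C) binding protein, at 746.5, 696.5 and 782.7 FPKM against 252.2.

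The list of CCR4-NOT and PAN deadenylation, which holds the complexes' subunits and the TOB and BTG adaptors, had 3 of 18 genes enriched and 1 depleted in HUR fRIP, with a median of 0.51. RQCD1, a CCR4-NOT subunit, was highest at 1.35 ± 0.17 (SE) on the log2 scale, and PAN2, the catalytic subunit of the PAN complex, was depleted at -1.02 ± 0.23. Decapping and 5′ to 3′ decay genes had 0 of 15 enriched and 4 depleted, with a median of -0.37, and LSM2, of the ring that activates decapping, was lowest at -1.93 ± 0.17. Exosome and associated genes had 0 of 14 enriched and 4 depleted, with a median of -0.45, EXOSC4 being lowest at -2.22 ± 0.25. Kinases, 14-3-3 proteins and other regulators that act on the members had 3 of 14 enriched and 2 depleted, with YWHAG highest at 1.08.

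In SUZ12 fRIP 7 of the 18 deadenylation genes were enriched and 0 depleted, with PAN2 at 254.1, 334.6 and 287.3 FPKM against an input mean of 36.6, at 2.99 ± 0.23 (SE) on the log2 scale. PAN2 was thus called in opposite directions in HUR and SUZ12. Of the decapping genes 3 were enriched and 5 depleted, from the exonuclease XRN1 at 3.18 ± 0.14 to LSM2 at -2.32 ± 0.17. The exosome list had 5 enriched and 4 depleted, the regulators 2 and 5, and the other binders 7 and 4, with RC3H1 (roquin) at 2.47 and HNRNPA0 at -1.63. Those shares stand beside 15.3% of all genes enriched and 8.6% depleted in SUZ12.

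**Figure D5:**
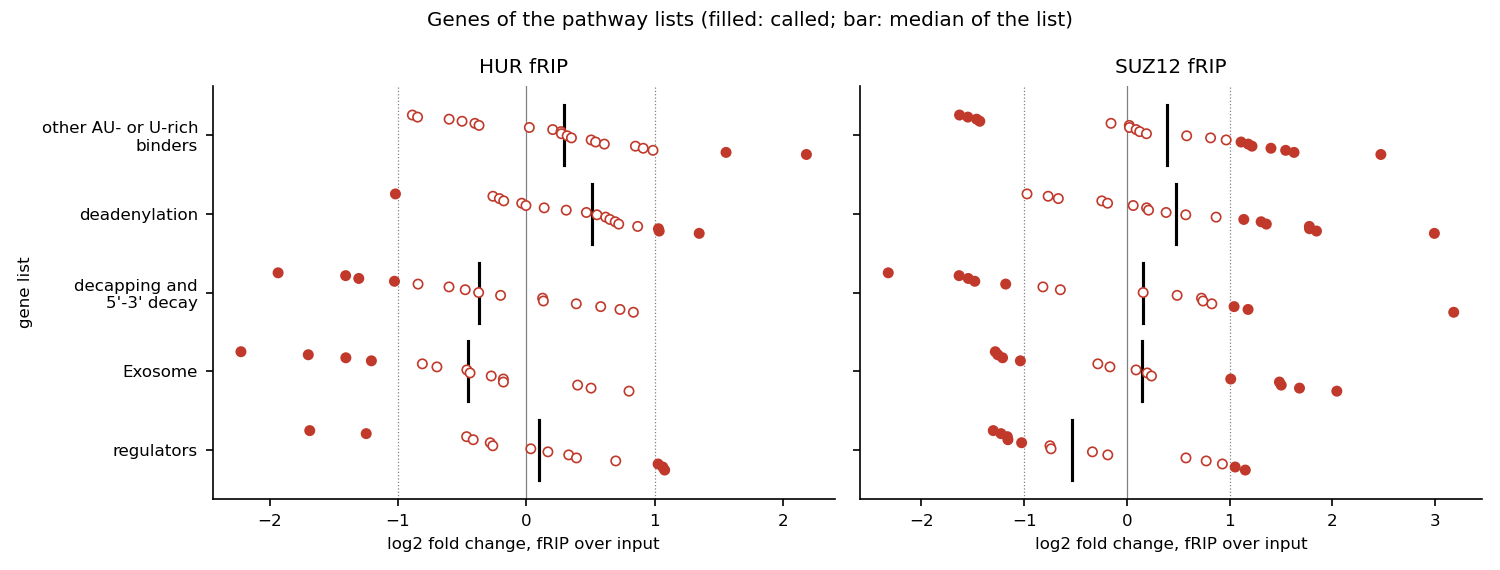
Log2 fold change over input in HUR (left) and SUZ12 fRIP (right) for the tested genes of 5 lists, with 1 point a gene, filled where called, and a bar at the list's median. In HUR the decapping and exosome lists have no filled point above 1 and medians of -0.37 and -0.45, and in SUZ12 XRN1 reaches 3.18.

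Over the 24 fRIP means of log2(FPKM + 1), which share their scale and in part their depth, the mRNAs of HUR and KHSRP followed each other at Pearson r = 0.76, TIA1 and TIAL1 at 0.73 and ZFP36 and ZFP36L1 at 0.61. ZFP36L2 ran against TIA1 at -0.74, and ELAVL1 against TIA1 at -0.62. Among 9029 genes with a mean of at least 10 FPKM, the one most like ELAVL1 was PCBP1 (r = 0.93), a poly(C) binding protein. The most alike genes were RBM39, a splicing factor, for TIA1 (0.94), USP45 for TIAL1 (0.92), PRMT6 for ZFP36L2 (0.87), ELOVL6 for ZFP36L1 (0.81), EFCAB2 for HNRNPD (0.79), GATAD2A, at 0.77, and CTD-2330J20.2, at 0.77, for KHSRP, and ZYX for ZFP36 (0.75). Next in likeness came MFSD8 for TIA1 (0.92), RP11-6N17.6 for ELAVL1 (0.90), B4GALT5 for ZFP36L2 (0.85), RP11-33B1.1 for TIAL1 (0.83), RP11-301G19.1 for ZFP36L1 (0.78), MRPS14 for HNRNPD (0.76) and ZNF384 for ZFP36 (0.74). These are descriptions over 24 fRIPs, from which nothing on shared control was drawn.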

How the data were processed

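The authors depleted ribosomal RNA, sequenced in paired ends, used TopHat for alignment against hg19 and obtained FPKM for GENCODE v18 genes and isoforms from Cuffdiff 2 (the submitters' processing notes also list Cuffnorm). Both deposited expression tables hold 1 FPKM column for each library. The authors' fold changes, p-values and q-values were not used as results, and their input mean served only to find the input set nearest to each protein's comparison.

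One limma 3.58.1 fit (R 4.3.3) with an intensity trend covered log2(FPKM + 1) in the 79 libraries together, with separate means for every protein and for input, after features under 1 FPKM in all or all but 1 of the libraries were dropped, and Benjamini-Hochberg adjustment within each comparison. Folds are on the scale of FPKM + 1 and understate changes of low genes. Exact permutation tests were two-sided. Tables were handled in Python 3.11.15 with pandas 2.3.3 and scipy 1.17.1. On simulated data for HUR fRIP, 98% of genes and 80% of isoforms changed by 1.5 on the log2 scale were called, with 1 other gene and 2 other isoforms. Only features above a set mean level were changed, which left out ZFP36 and the low isoforms. The simulated noise held no differences between input sets.

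The members and gene lists were chosen with earlier results of these data known. Named are the 8 members, their isoforms averaging at least 1 FPKM in input or HUR fRIP, the 2 genes most like each member over the fRIPs, and the called genes with the largest and smallest change in each list, of which 1 is not reported here. Isoform classes come from GENCODE v44, which lacks 5 of the isoforms. Replicate numbers were checked for pairing by correlating deviations from group means. Every same-number pair was over 0.1 only for CHD1, NUP98, PCAF and WDR5 with input set 2 (lowest r 0.129 to 0.171). The second STAG2 library carries different numbers in the labels and the table and was left out of the block fit. Depth was read from low values, 96.9% to 99.5% of which lay within 0.15 of a whole fragment.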

Additional observations from a re-analysis of the deposited data

Results flagged for a closer look

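ZFP36L1 stood at 4.93 FPKM in input set 2 replicate 3, farther from the nearest of the other inputs than a Dixon test at 95% allows, while ZFP36L2 in the same library stood far above the others at 20.5 FPKM. Chance flags some groups under this test. Replicate 3 was likewise the lowest of 3 for ZFP36L1 in the fRIPs of CHD1 (6.57 FPKM), NUP98 (4.47), PCAF (3.55), RBBP5 (4.91) and WDR5 (6.74), whose comparisons match input set 2, and the highest of 3 for ZFP36L2 in each of them (14.8, 37.4, 27.7, 17 and 59.1 FPKM). ELAVL1 and KHSRP differed between HUR fRIP and the other 23 fRIPs by a test of the difference itself, at 1.19 and 1.05 on the log2 scale (limma, adjusted p = 4.65e-12 and 5.73e-10).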

How the results depend on the processing

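Alternatives covered the pseudocount, the filter, centring, the inputs used, the samples in the fit, a replicate block and leaving out each library. The count of members called in HUR fRIP, 1, became 0 after centring, 2 against input set 1 alone and 0 against input set 2 alone, and ran from 1 to 2 with a library left out (2 without HUR replicate 3 and without input set 2 replicate 3). The 18 calls over the 24 fRIPs became 33 after centring. The 5 depleted ones became 15 after centring, 11 against input set 2 alone and 3 against the input set nearest to the authors' comparison. The 2 calls against the other 23 fRIPs became 0 after centring and ran from 1 to 2 with a library left out. Among members that were not called in HUR fRIP, the sign turned for ZFP36, at 0.042 against input set 3 alone, which is also the nearest set, and from -0.28 to 0.14 with a library left out (the latter without HUR replicate 3). It turned for TIAL1, at -0.17 after centring and from -0.045 (without HUR replicate 2) to 0.16 with a library left out, and for ZFP36L2, at -0.18 after centring, -0.17 against input set 2 alone and from -0.02 (without HUR replicate 1) to 0.17 with a library left out. The cause was not tested. The fit with the replicate block gave 1 member call in HUR fRIP, 18 over the 24 fRIPs and 10 isoform calls, and it changed no count reported. A block within input set 2, added after the pairing check, left ZFP36L2 in WDR5 fRIP called at 1.33 and TIAL1 in RBBP5 fRIP at 1.02. ZFP36 rested on the fewest fragments, an estimated 3 to 17 in an ADAR library.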

Other observations

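The TIAL1 share in retained-intron isoforms in SUZ12 fRIP exceeded input by 35.8 percentage points against input set 1 alone, 41.6 against set 2 and 39.3 against set 3. The log2 ratio of the long to the short ELAVL1 form in HUR fRIP exceeded input by 0.97, 0.89 and 1.08 against the same sets, and by 0.82 to 1.15 with any 1 library left out. ELAVL1 averaged 35, 49.8 and 45 FPKM in input sets 1, 2 and 3, and HNRNPD 139.1, 178.3 and 147.5 FPKM.

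In HNRNPH1 fRIP, ZFP36L1 was carried by other isoforms than in input. ENST00000408913.2 was at 16.3, 18.7 and 19.3 FPKM against 1.01 to 2.62 FPKM in input. ENST00000439696.2, the main form of input, was at 1.71e-04, 3.41 and 2.08e-04 FPKM against 2.77 to 5.19 FPKM, so replicate 2 overlapped the inputs. Both ELAVL1 forms were lower there, at -1.08 for the long form and -1.79 for the short form on the log2 scale, whereas the retained-intron form ENST00000595499.1 rose by 2.04 (limma, adjusted p = 1.18e-12). In DNMT1 fRIP the 856-base ELAVL1 form ENST00000593807.1 was at 6.47, 8.12 and 12.1 FPKM against at most 0.973 FPKM in input, with the long form at -1.13. In PABP fRIP the longest KHSRP form, ENST00000600480.1, averaged 7.89 FPKM against 1.25 in input.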
